A study of Mus musculus with 6 samples.

Results

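In mouse DNA enriched with the methyl-CpG-binding protein MBD2, a small set of regions had a methylation peak in stem cells and in erythroblasts. These regions had none in the progenitor stage between them. To find them, the peaks of the 3 cell types on chromosomes 1 to 19 were merged wherever they overlapped or touched. A merged region belongs to the set when it holds a peak of hematopoietic stem cells (HSC) and one of erythroblasts (ERY) and no peak of common myeloid progenitors (CMP). The rule gave 1048 of 85078 merged regions, or 1.23% (95% exact Clopper-Pearson interval 1.16 to 1.31%). The regions were chosen by the peak calls of these same 3 lists, so the presence or absence of a peak in them is a description and was not tested.

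The series compares methylation profiles along stem cell differentiation, with 1 MBD2-enriched library and 1 supernatant library per cell type. The supernatant libraries are not analysed here. All cells are labelled as C57BL/6 and female, with no other treatment or genetic change given, and adult bone marrow is given as the source of the HSC and CMP. HSC are the lineage-negative cells with both Sca-1 and c-kit, CMP those with c-kit and without Sca-1, and the labels do not say how the erythroblasts were collected. As background, the first gate also holds multipotent progenitors. The second also holds granulocyte-macrophage and megakaryocyte-erythroid progenitors, so CMP is the label of a mixed gate. No expression was measured, so the cell types could not be checked against marker genes.

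In mammals a methyl group sits mainly on the C of CpG sites, and is copied to the new strand at each cell division by the maintenance enzyme DNMT1. MBD2 holds DNA through its methyl-CpG-binding domain, and it binds best where methylated CpG sites lie close together. Erythroblasts are the nucleated precursors of red cells, and in mice their genome is known to lose methylation broadly as they mature. A peak in erythroblasts over a region with none in the progenitor list is the reverse of that order.

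The lists of chromosomes 1 to 19 held 83430 HSC peaks, 49054 CMP peaks and 27266 ERY peaks. Each peak is a start and an end without height, score or read count. A region without a CMP peak is therefore one in which none was called, at whatever sensitivity that list had, and its methylation may have gone undetected. Read depth is unknown. Each cell type has 1 enriched library, so the differences below carry no replicate check. The intervals given with shares treat regions as independent and cover counting error only.

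Of 25444 regions with an HSC and an ERY peak, the 1048 without a CMP peak made up 4.12% (3.88 to 4.37%). The share depended on the peaks used, and with the wider 50% of each list it was 18.02%, with 1886 regions. In the full lists the same omission was rarer for HSC and far more frequent for ERY. Of 24670 regions with a CMP and an ERY peak, 1.11% (0.984 to 1.25%) had no HSC peak, and of 46514 regions with an HSC and a CMP peak, 47.6% (47.1 to 48.0%) had no ERY peak. These shares depend on the length of each list and do not rank the cell types.

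Seen from the other side, an HSC peak without a CMP peak seldom came with an ERY peak. Of 35850 regions with an HSC peak and no CMP peak, 2.92% (2.75 to 3.10%) held an ERY peak, against 52.4% (52.0 to 52.9%) of regions with an HSC and a CMP peak. Of 2048 regions with an ERY peak and no CMP peak, 51.2% (49.0 to 53.4%) held an HSC peak, against 98.9% (98.8 to 99.0%) of regions with a CMP and an ERY peak. Erythroblast peaks outside the CMP list had an HSC peak about as often as not.

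The peaks of both cell types overlapped over most of their length. In 1038 of the 1048 regions there was a single ERY and a single HSC peak, in 4 there were several ERY peaks and in 6 several HSC peaks. The merge joins only peaks that overlap or touch, so ERY and HSC peaks had to meet in each of the 1048 regions. The fewest bases shared were 96 bp. The median shared stretch was 584 bp (interquartile range 482 to 695 bp). It took up a median of 87.6% of the ERY cover and 85.6% of the HSC cover. In 1032 regions at least 50% of the ERY cover was shared, and in 16 it was less. The centres of single peaks lay a median of 79 bp apart (interquartile range 39.1 to 133 bp, at most 673 bp). In regions with a peak in all 3 lists this offset had a median of 83.5 bp.

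ERY and HSC peaks were of about equal length in these regions. ERY peaks covered 279 to 1894 bp with a median of 714.5 bp, and HSC peaks 334 to 2157 bp with a median of 719 bp. The ratio of ERY to HSC cover had a median of 0.965 (interquartile range 0.770 to 1.21). ERY cover was the larger in 484 regions and HSC cover in 561, and 3 were equal. In 24396 regions with a peak in all 3 lists the ratio had a median of 0.897. ERY cover was larger in 46.2% of the regions without a CMP peak (43.1 to 49.3%) and in 35.1% of those with a peak in all 3 (34.5 to 35.7%).

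Differences in cover of at least 1.5-fold were found in both directions. ERY cover was at least 1.5-fold the HSC cover in 97 of the 1048 regions, or 9.26% (7.57 to 11.2%), where all 25444 regions with an HSC and an ERY peak gave 5.35%. HSC cover was at least 1.5-fold the ERY cover in 132, or 12.6% (10.6 to 14.8%), where all such regions gave 17.3%. Cover comes from the same peak calls that the rule used, so these shares are descriptions.

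**Figure D1:**
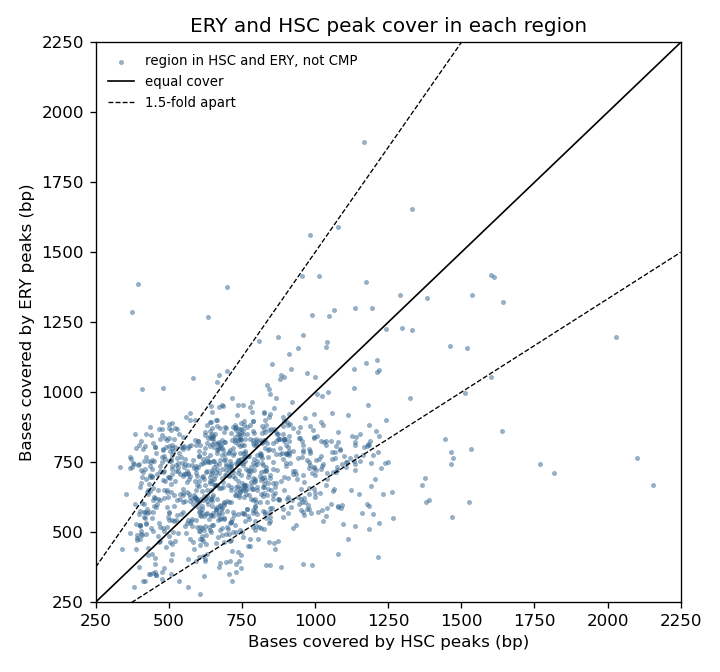
Bases covered by ERY peaks (vertical axis, bp) against bases covered by HSC peaks (horizontal axis, bp), 1 point for each of the 1048 regions with an HSC and an ERY peak and no CMP peak. The solid line marks equal cover and the dashed lines a 1.5-fold difference, beyond which lie 97 regions with more ERY cover and 132 with more HSC cover.

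How the peaks lay on each other fell into 3 kinds. In 298 regions (28.7%) the ERY peak lay inside the HSC peak, with a median of 626 bp of ERY cover and 908 bp of HSC cover. In 215 regions (20.7%) the HSC peak lay inside the ERY peak, with medians of 780 bp in ERY and 512 bp in HSC. In the remaining 525 regions (50.6%) the peaks were staggered, and both covers were alike, with medians of 715 bp in ERY and 718 bp in HSC. In regions with a peak in all 3 lists and single HSC and ERY peaks, the shares were 37.0%, 16.0% and 47.0% in the same order of kinds. The median distance to a CMP peak was 8014 bp for the first kind, 10556 bp for the second and 8054 bp for the staggered ones.

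**Figure D2:**
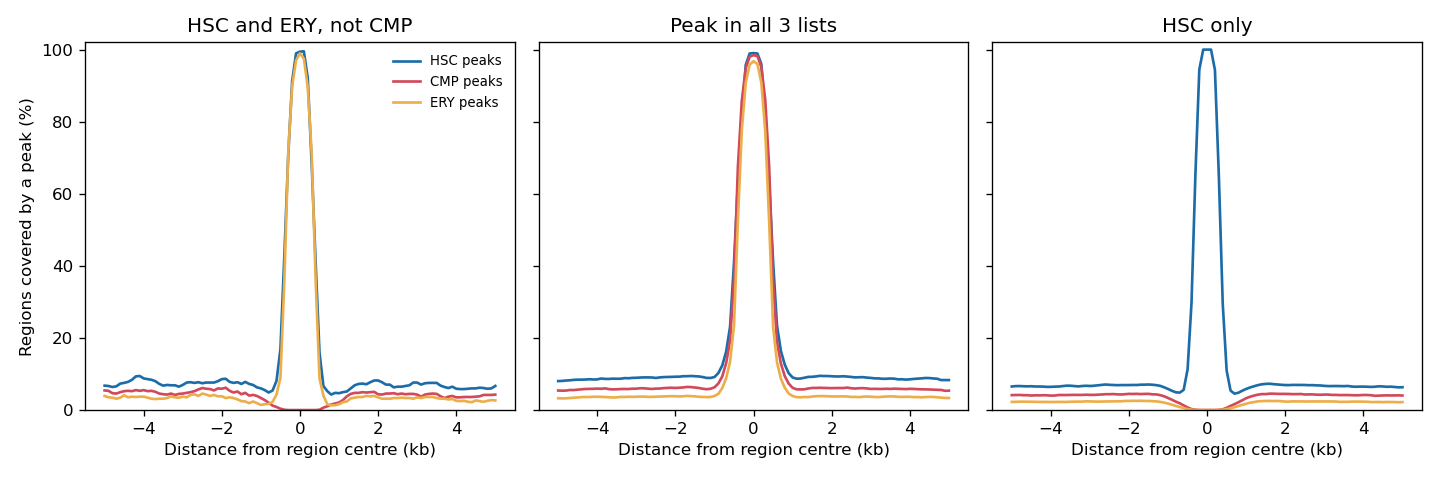
Share of regions covered by a peak of each list (vertical axis, percent) by distance from the region's centre (horizontal axis, kb), for regions with an HSC and an ERY peak and no CMP peak (left), regions with a peak in all 3 lists (middle) and regions with an HSC peak only (right). In the left panel ERY and HSC cover coincide at the centre at 99.0% and 99.4%. These values are high by construction, since each region was built from overlapping or touching ERY and HSC peaks. The CMP line is at 0 there by the rule and reaches 4.39% at 2000 bp to the right of it.

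HSC and ERY peaks covered fewer bases in these regions than in regions with a peak in all 3 lists. The merge has a part in this, because cover counts all peaks of a list in a region and a CMP peak can join several. Of regions with a peak in all 3, 803 held 2 or more HSC peaks, against 6 of the set. The median HSC cover of 719 bp stood between that of regions with an HSC peak only (677 bp) and that of regions with HSC and CMP peaks (761 bp), and regions with a peak in all 3 had 885 bp. The median ERY cover of 714.5 bp was above that of regions with an ERY peak only (683.5 bp) and of regions with CMP and ERY peaks (666 bp), and below the 802 bp of regions with a peak in all 3. No region of the set was wider than 2269 bp, while the widest region with a peak in all 3 spanned 20014 bp. The very wide peaks of the 3 lists lay outside the set.

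The share of regions lacking a CMP peak changed with the HSC and ERY cover of the region. Part of this is built in. A CMP peak can join several HSC or ERY peaks into 1 region, and a wider region has more room to meet a CMP peak. Of regions with a peak in all 3 lists, 803 held 2 or more HSC peaks and 514 held 2 or more ERY peaks, against 6 and 4 of the set. The 25444 regions with an HSC and an ERY peak were divided into quintiles by HSC cover. In the narrowest quintile, of 260 to 655 bp, 400 of 5091 regions had no CMP peak, or 7.86% (7.13 to 8.63%). The shares in the following quintiles were 5.52%, 3.67% and 2.67%. In the widest quintile, from 1214 bp, 44 of 5080 regions had none, or 0.866% (0.630 to 1.16%). By ERY cover the shares were 7.21% in the narrowest quintile (279 to 640 bp), then 5.32%, 4.33% and 2.31%, and 1.40% in the widest (from 953 bp).

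Both widths counted together gave the widest spread. Where HSC and ERY cover were both in their narrowest quintile, 185 of 1923 regions had no CMP peak (9.62%, 8.34 to 11.0%). Where both were in their widest quintile, 17 of 3015 had none (0.564%, 0.329 to 0.901%). Within the narrowest HSC quintile the share was 9.62% in the narrowest ERY quintile and 4.58% in the widest, where it rests on 6 of 131 regions. The share fell with each step in HSC cover alone and in ERY cover alone. With both together it did not fall at every step, and the lowest share was 3 of 773 regions (0.388%) in the widest HSC quintile and the ERY quintile next to the widest. The lists hold no heights or counts, and the part of the merging, of peak strength or of the sensitivity of the CMP list in this was not tested.

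**Figure D3:**
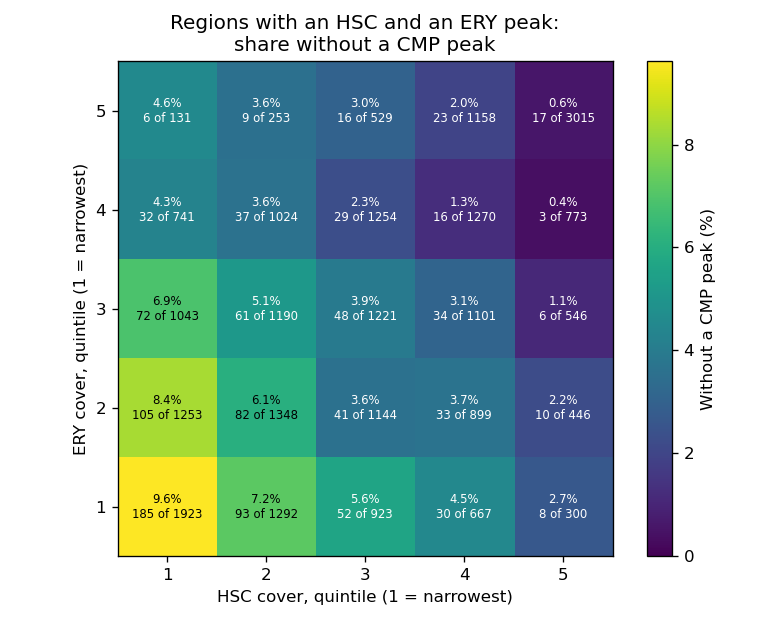
Share of regions without a CMP peak (colour and upper figure in each cell, percent) among regions with an HSC and an ERY peak, by quintile of HSC cover (horizontal axis) and of ERY cover (vertical axis), where 1 is the narrowest. The lower figures give regions without a CMP peak of all in the cell, and the share is 9.62% at the lower left, 0.564% at the upper right and lowest, 0.388%, in the cell below the upper right.

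Regions with wider HSC cover held an ERY peak more often, whether or not a CMP peak was present. Some of this trend is built into the merge. Wider HSC cover has more room to meet an ERY peak, and an ERY or a CMP peak can join several HSC peaks. How much of the trend comes from the merge was not tested. Among regions with an HSC peak and no CMP peak, 2.30% (2.02 to 2.62%) of the quintile with the narrowest HSC cover (246 to 557 bp) held an ERY peak, and 4.35% (3.68 to 5.10%) of the widest (from 1010 bp). These quintiles were taken over all regions with an HSC peak. Among regions with an HSC and a CMP peak these shares were 37.6% and 67.3%.

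The 6 regions with the most shared bases lay on 5 chromosomes. The region with the most bases common to both lists lay on chromosome 19 at 53030506 to 53032117 of mm9, with 1413 bp of ERY cover inside 1612 bp of HSC cover. The nearest CMP peak was 22937 bp away. The next lay on chromosome 15 at 81680920 to 81682456, with 1349 bp in ERY against 1537 bp in HSC. These are long peaks for the set, in which 5% of regions exceeded 1022 bp of ERY cover and 5% exceeded 1190 bp of HSC cover.

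A pair of the regions ranked by shared bases lay on chromosome 6. The region at 116362962 to 116364648 had 1418 bp in ERY and 1602 bp in HSC, and a CMP peak began 461 bp beyond its edge. The one at 136855240 to 136856894 had 1655 bp in ERY and 1333 bp in HSC, so that the HSC peak lay inside the ERY peak. The remaining regions of this ranking were on chromosome 7 at 28260923 to 28262339, with 1335 bp in ERY and 1384 bp in HSC, and on chromosome 11 at 118373729 to 118375093, with 1223 bp in ERY and 1332 bp in HSC. Of these 6 regions 5 had more HSC cover than ERY cover.

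Ranked by ERY cover alone, the widest region was on chromosome 5 at 136615060 to 136616953, where the ERY peak of 1894 bp reached well beyond 1168 bp of HSC cover. The third in that ranking, after the chromosome 6 region just given, was also on chromosome 5, at 123601291 to 123603007, with 1591 bp in ERY and 1080 bp in HSC. In both chromosome 5 regions ERY covered more than HSC, by 1.62-fold and 1.47-fold, which a ranking by ERY cover favours.

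Ranking by HSC cover favours the reverse, and the regions at its top had more HSC than ERY cover. On chromosome 17 at 84197429 to 84199603 ERY covered 669 bp and HSC 2157 bp, a ratio of ERY to HSC of 0.310, which was the lowest in the set. On chromosome 5 at 136608532 to 136610632, ERY covered 764 bp within 2101 bp of HSC cover. On chromosome 7 at 106052833 to 106055101, ERY covered 1198 bp and HSC 2029 bp. In each of these 3 the ERY cover was well short of the HSC cover.

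Regions at the edge of the rule had CMP peaks very close by. The smallest distances from a region to a CMP peak outside it were 7 bp on chromosome 2 (112101259 to 112102005), 9 bp on chromosome 19 (6114988 to 6116014), 10 bp on chromosome 13 (53021560 to 53022441) and 23 bp on chromosome 3 (27150139 to 27150940). Their ERY cover was 702, 798, 803 and 797 bp, against 597, 978, 653 and 667 bp of HSC cover. Just outside the rule stood regions of all 3 lists with the least CMP cover. The least was 218 bp, on chromosome 15 at 60633536 to 60633966, where ERY covered 351 bp and HSC 431 bp. The next 3 had 219 bp of CMP cover each, on chromosome 15 at 50457655 to 50458061 and 96809359 to 96809810 and on chromosome 16 at 55956045 to 55956575.

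Most regions nevertheless lay more than 1000 bp from any CMP peak, though by median distance nearer to one than regions with an HSC or an ERY peak only. The distance to the nearest CMP peak had a median of 8306 bp (interquartile range 2756 to 23329 bp). Within 100 bp there was a CMP peak for 9 of the 1048 regions, within 500 bp for 52 and within 1000 bp for 115. Within 5 kb there was one for 408, or 38.9% (36.0 to 42.0%), where all 35850 regions with an HSC peak and no CMP peak gave 34.2%. Regions with an HSC peak only had a median distance of 9771 bp and those with an ERY peak only 14031 bp. The set also lay nearer to merged regions of any kind than regions with an HSC peak only did. The median gap to the nearest one was 4321.5 bp against 4938.5 bp. Another merged region lay within 5 kb for 54.8% against 50.3%. The greater nearness is therefore not particular to CMP peaks.

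**Figure D4:**
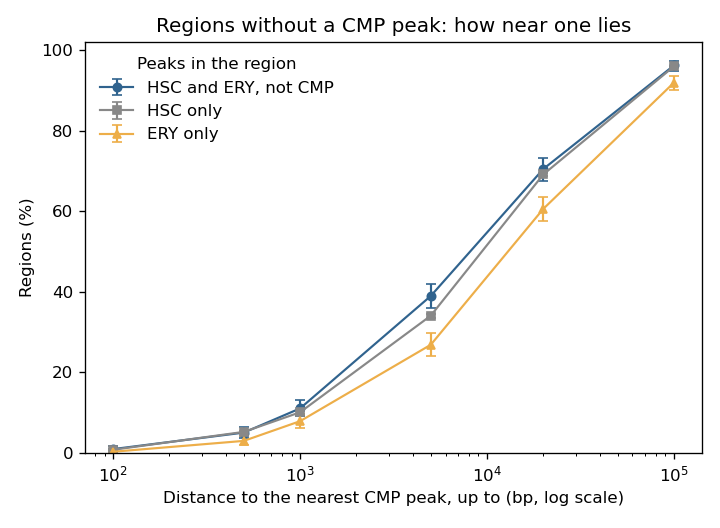
Cumulative share of regions (vertical axis, percent) with a CMP peak no farther away than the distance on the horizontal axis (bp, log scale), for regions with HSC and ERY peaks, with an HSC peak only and with an ERY peak only, none of which holds a CMP peak. Bars are 95% exact binomial intervals, and at 5000 bp the shares are 38.9%, 34.0% and 26.8%.

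A few regions lay very far from any CMP peak. The farthest from a CMP peak, by 739368 bp, was on chromosome 12 at 24327230 to 24328229, with 992 bp in ERY and 846 bp in HSC. Chromosome 6 followed with a region at 106557072 to 106557739 that was 484083 bp from a CMP peak. Then came regions on chromosome 8 at 43749785 to 43750844, 415105 bp away, and again on chromosome 6 at 78579504 to 78579947, 276073 bp away. Their ERY cover was 582, 1060 and 421 bp, against 660, 884 and 444 bp in HSC. The ERY and HSC peaks of these 4 regions shared between 83.4% and 94.8% of the region.

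The share of regions without a CMP peak varied between chromosomes, and on 3 of the 19 the interval left out the overall share. It ranged from 3.01% on chromosome 8 (47 of 1561 regions with an HSC and an ERY peak) to 5.78% on chromosome 3 (73 of 1262), with a standard deviation of 0.662 percentage points over the 19 chromosomes. The interval lay above the overall 4.12% on chromosome 3 (4.56 to 7.22%). It lay below it on chromosome 5 (2.36 to 3.90%) and on chromosome 8 (2.22 to 3.98%). No adjustment over the 19 chromosomes was made. Chromosome X, which the rule leaves out, held 6 further regions of this kind, and chromosome Y none.

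**Figure D5:**
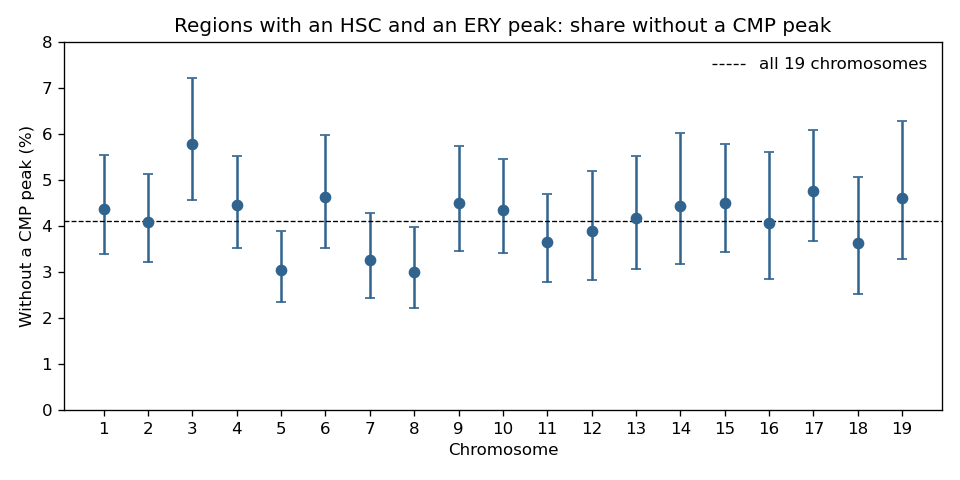
Share of regions without a CMP peak among regions with an HSC and an ERY peak (vertical axis, percent) for each of the 19 chromosomes (horizontal axis), with 95% exact binomial intervals. The dashed line is the share over all of them, 4.12%, and the interval leaves it out on chromosomes 3, 5 and 8.

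Along the chromosomes the set followed the regions with HSC and ERY peaks. The distal 10 Mb of the peak-covered part of each chromosome held 140 of the 1048 regions, the proximal 10 Mb held 66, and the part between held 842. Of regions with an HSC and an ERY peak, 3.84% lacked a CMP peak in the distal part (3.24 to 4.52%), 3.98% in the proximal part (3.09 to 5.03%) and 4.18% between (3.91 to 4.47%). These intervals overlap.

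Regions of the set seldom lay directly beside each other. With so few members, most would stand singly without any tendency to spread out. Members made up 1.81% (1.29 to 2.48%) of the neighbours of members and 1.23% of neighbours over all merged regions. The nearest other region of the set was a median of 465034 bp away. Going along each chromosome from one merged region to the next, 1011 of the 1048 had no other of the set directly beside them, 17 runs held 2 and 1 run held 3. That run was on chromosome 17, with regions at 41173404 to 41174085, 41216050 to 41216910 and 41217575 to 41218197. Their ERY cover was 567, 818 and 623 bp, against 682, 787 and 483 bp in HSC. The nearest CMP peak was 110174, 152820 and 154345 bp away, so the whole run fell in a stretch without CMP peaks.

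Some regions of the set lay near each other. There were 11 pairs within 5 kb of each other, a list drawn up after the values were seen. For scale, the nearest merged region of any kind was a median of 4321.5 bp from a region of the set. The closest pair was on chromosome 8, where 74014794 to 74015960 and 74016066 to 74017042 were 105 bp apart, with 804 and 596 bp of ERY cover and 1167 and 977 bp of HSC cover. On chromosome 5, the region with the widest ERY cover and the one with the second widest HSC cover were neighbours 4427 bp apart, with no other merged region between them. On one of them ERY cover was larger and on the other HSC cover. Also on chromosome 5, 3 regions from 100480272 to 100487424 followed each other within gaps of 2090 and 2506 bp, the first gap holding 1 other merged region.

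Windows of 1 Mb held at most 5 regions of the set, and 4 windows reached that number. On chromosome 10 between 126 and 127 Mb there were 5 among 48 regions with an HSC and an ERY peak. Of the 111 merged regions in this window, 109 held an HSC peak, 77 a CMP peak and 50 an ERY peak. The 5 regions started at 126294435, 126539510, 126718545, 126732679 and 126739841, the last 3 of them close together. Their ERY cover was 856, 811, 1056, 668 and 844 bp, against 1078, 799, 999, 1037 and 1005 bp in HSC.

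The window on chromosome 13 between 113 and 114 Mb had fewer CMP peaks around its 5 regions. Of 82 merged regions there, 79 held an HSC peak, 35 a CMP peak and 31 an ERY peak, and 29 held both HSC and ERY peaks. The 5 regions started at 113006006, 113217414, 113368164, 113636822 and 113657421. Their ERY cover was 552, 418, 519, 610 and 745 bp, against 833, 746, 492, 629 and 660 bp in HSC. The merged regions spanned 603 to 833 bp here and 880 to 1120 bp in the chromosome 10 window. Over all 1048 regions the width had a median of 840.5 bp and an interquartile range of 726 to 962 bp. With 5 regions in each window, no difference in width between the windows is read from this.

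CMP peaks were common directly beside the regions of the set. Of 2094 directly neighbouring merged regions, 57.1% (55.0 to 59.2%) held a CMP peak, against 57.9% (57.5 to 58.4%) beside regions with a peak in all 3 lists, 56.0% (55.6 to 56.3%) beside regions with an HSC peak only and 56.7% over all regions. In 341 of the 1048 regions (32.5%) both neighbours held a CMP peak, and in 193 (18.4%) neither did. Over all regions these shares were 32.4% and 19.1%. These shares put CMP peaks about as often beside these regions as beside the rest, although none was called inside them.

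Neighbours held an ERY peak in 36.1% of cases (34.0 to 38.2%), against 34.2% (33.8 to 34.7%) beside regions with a peak in all 3 lists, 30.3% beside regions with an HSC peak only and 31.4% over all regions. A neighbour with an ERY peak only made up 2.20% (1.61 to 2.92%), against 1.13% (1.04 to 1.23%) beside regions with a peak in all 3. Another region of the set made up 1.81% (1.29 to 2.48%) of neighbours, against 1.36% (1.26 to 1.47%) beside regions with a peak in all 3. Beside regions with an HSC peak only it was 1.17%, and over all regions 1.23%. Within 100 kb on each side there was a median of 12 other merged regions around the set and also 12 around regions with a peak in all 3, of which 56.8% and 58.2% held a CMP peak. Another region of the set lay within that distance for 178 of the 1048 (17.0%, 14.8 to 19.4%), against 15.5% (15.1 to 16.0%) around regions with a peak in all 3.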

How the data were processed

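Per the labels' protocols, MBD2-bound DNA of 3 cell types was read as 36 bp single ends on an Illumina Genome Analyzer and reads with a unique place were kept. Coordinates are on mm9 according to the submitters' processing notes. For every cell type the authors deposited a list of peaks with 3 columns (chromosome, start, end), and per the file headers these came out of a table browser query. No aligner, peak caller or threshold is named in the labels or headers, and read depth is unknown. Peaks were merged where they overlapped or touched, and the cover of a list is the number of bases of a region under its peaks. Coordinates are printed 1-based. Shares carry 95% exact binomial intervals. No test between cell types was run.

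Regions named were those with the most shared bases, the widest ERY and HSC cover, those farthest from and nearest to a CMP peak, the longest run and the 2 windows of 1 Mb with the most members. Members on chromosome 18 were counted and left out of this choice. Where 4 windows tied, the first 2 in the order of chromosome names as text were taken. The members and lists were chosen with earlier results of these data known. The gene and promoter tables at hand belong to GRCm38, another assembly, so planned results on genes, CpG content and motifs were not run.

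Python 3.11.15, numpy 2.4.6, pandas 2.3.3, scipy 1.17.1 and matplotlib 3.10.9 were used. The merge was checked against bedtools 2.31.1, which gave the same 85078 regions and 1048 members, and was tested on simulated data.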

Additional observations from a re-analysis of the deposited data

How the results depend on the processing

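Of 7 results, 133 values recomputed without 1 chromosome all stayed inside the interval of the full value or, for the count, within 1.5 times, which they could hardly fail at the small share of regions on any 1 chromosome. Of 42 values under 6 other settings, 32 did so. With the wider 50% of each list there were 1886 regions, making up 18.02% of regions with an HSC and an ERY peak, with median cover of 862 bp in ERY and 928 bp in HSC, a ratio of 0.943, a CMP peak within 5 kb for 27.3% and a CMP peak in 50.6% of neighbours. This setting shortens all 3 lists, so that regions can both enter and leave the set, and the cause of these shifts was not tested. Ending membership also at a CMP peak within 1 kb gave a share of 3.67% and a CMP peak within 5 kb for 31.4%, lower by construction. Joining peaks across gaps of up to 500 bp gave a CMP peak within 5 kb for 34.8%. A CMP peak within 500 bp then ends membership, so part of this drop is also by construction. The settings for neighbours, and the wider 50% and the strict 1 bp overlap for cover and distance, and leaving out chromosomes for the count and the share, were chosen after seeing the data. No paired analysis was possible because each cell type has 1 library. The depth of the libraries is unknown, and its part in the length of the CMP list was not tested.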
